A study of Mus musculus with 24 samples.

Results

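A set of 10 genes that restrain Wnt signalling was followed across mouse colorectal tissue: Wif1, Sfrp1, Dkk2, Dkk3, Notum, Rnf43, Znrf3, Apcdd1, Axin2 and Nkd1. They are 10 of the 24346 gene symbols in each deposited table and were chosen by symbol with earlier results of these libraries known, above all their levels in tumors against normal tissue. Those levels are therefore given as a description. All 24 libraries, normal tissue included, carry the treatment label AOM/DSS, in which the mutagen azoxymethane is followed by dextran sulfate, an irritant of the gut lining, so that tumors form in an inflamed colon. Of the tumors, 9 libraries have the genotype label c-MAF_KO and 5 are wild type. Their titles split the knockout tumors into 3 "1_hetero_ko" libraries (written here as KO-1-hetero), 3 "8_hetero_ko" libraries (KO-8-hetero) and 3 "8_homo_ko" libraries (KO-8-homo) and the wild-type tumors into 4 "wild_young" and 1 "wild_old" library (WT-young and WT-old). Normal tissue of each of these 5 kinds is present in 2 libraries, 10 in all. The meaning of the leading numbers 1 and 8, the strain, the kind of deletion, the ages behind the words young and old, and which libraries share an animal are not given in the sources used here, so the p-values measure the spread between these libraries only.

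Wnt ligands bind Frizzled and LRP receptors, which stops the destruction complex from degrading beta-catenin, and beta-catenin then switches on target genes with TCF/LEF factors. In the colon this pathway keeps the crypt base proliferating, and its constant activation is the usual first step of colon tumors. Many of its targets act against it. Wif1 and Sfrp1 are secreted and bind Wnt ligands, the Dickkopf protein Dkk2 acts on the LRP receptors, and Dkk3 is a divergent Dickkopf whose action on Wnt is disputed. Notum is a secreted enzyme that removes the lipid from Wnt ligands. Rnf43 and Znrf3 are membrane ubiquitin ligases that clear Frizzled from the cell surface, and Apcdd1 is a membrane inhibitor that binds Wnt and LRP. Axin2 is a scaffold of the destruction complex and the most used readout of beta-catenin activity, and Nkd1 binds Dishevelled inside the cell.

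In the RefSeq annotation of GRCm38.p6 the genes lie on 6 chromosomes, and 4 of them (Axin2, Notum, Rnf43 and Znrf3) are on chromosome 11. Promoter windows were at hand for 5 of the 10 genes (6 windows, with 2 for Rnf43). The 250 bases upstream of the start site are shown for Wif1, among the genes that stood highest over normal tissue, for Dkk2, which was lower in KO-1-hetero tumors, and for Rnf43 (upstream start), which followed Axin2 most closely. Capitals mark the letters CTTTG, the core of TCF/LEF motifs, searched on both strands.
Wif1 promoter, chr10:121033754-121034003, plus strand: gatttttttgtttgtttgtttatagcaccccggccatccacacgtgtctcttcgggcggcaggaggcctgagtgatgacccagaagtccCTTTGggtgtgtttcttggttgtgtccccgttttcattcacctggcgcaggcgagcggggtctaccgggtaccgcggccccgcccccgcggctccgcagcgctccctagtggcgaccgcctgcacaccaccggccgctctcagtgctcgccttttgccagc
Dkk2 promoter, chr3:132085042-132085291, plus strand: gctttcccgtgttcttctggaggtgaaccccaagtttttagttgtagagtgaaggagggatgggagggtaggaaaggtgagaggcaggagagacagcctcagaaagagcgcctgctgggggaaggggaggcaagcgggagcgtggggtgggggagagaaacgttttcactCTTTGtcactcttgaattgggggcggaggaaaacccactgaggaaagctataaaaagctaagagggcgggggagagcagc
Rnf43 promoter, chr11:87662837-87663086, plus strand: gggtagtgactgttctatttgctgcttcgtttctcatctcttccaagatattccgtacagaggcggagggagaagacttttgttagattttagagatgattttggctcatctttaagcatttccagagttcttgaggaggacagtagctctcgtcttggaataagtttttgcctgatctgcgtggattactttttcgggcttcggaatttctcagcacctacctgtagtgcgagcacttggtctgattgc
The longer forms CTTTGAT and CTTTGAA, both of which contain the core, were in none of the 6 windows. They were in 3.21% and 4.46% of the 32851 RefSeq windows of the same length. The core was present once in the Wif1 and once in the Dkk2 window and in 48.6% of all windows. These are matches of letters in a short window.

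The values are FPKM, fragment counts scaled to transcript length and to the mapped fragments of the library. Relative depth, read from the step size of low values, ranged from 0.69 to 1.87 of the median library, and no 2 libraries were identical. Maf, the gene named by the genotype label, measured 2.62 to 7.40 FPKM in the 9 KO-labelled tumors, 1.63 to 2.26 FPKM in the 4 WT-young tumors, and in the WT-old tumor 7.26 FPKM, so KO below means the label. Epithelial markers were abundant in every library, with summed levels of 7 genes between 4141 and 14779 FPKM. The 1 WT-old tumor stood apart from the other 13. Its 6 leukocyte markers summed to 609 FPKM against 35.3 to 132 in the other tumors, with Cd79a, a B cell receptor subunit, at 404 FPKM. Its 7 smooth muscle markers summed to 2879 FPKM against 173 to 1292 in the other tumors and 927 to 7123 in normal tissue, and its epithelial sum of 4141 FPKM was the lowest of all. Results that rest on it are given with and without it. In bulk tissue, fewer cells of a type and less RNA per cell cannot be told apart.

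Tumors other than WT-old held far more RNA of the secreted antagonists Wif1, Notum and Dkk2 and of Apcdd1 than normal tissue. Wif1 measured 223, 156, 155 and 133 FPKM in the WT-young tumors, 78.0, 154 and 48.7 in the KO-1-hetero tumors, 180, 28.5 and 47.9 in KO-8-hetero, and 238, 150 and 202 in KO-8-homo. The 10 normal libraries ran from 0.658 to 2.09 FPKM, with a median of 1.12. All 13 tumors were thus above every normal library for Wif1, and the WT-old tumor, at 2.29 FPKM, was just above the highest of them. Notum measured 78.4, 56.7, 62.3 and 60.3 FPKM in WT-young tumors, 42.8, 79.1 and 17.9 in the KO-1-hetero tumors, 148, 8.23 and 24.4 in KO-8-hetero, and 104, 133 and 82.3 in KO-8-homo. Its normal range was 0.188 to 0.510 FPKM, and the WT-old tumor, at 0.222 FPKM, lay inside it. The mean level of Notum in WT-young tumors was 64.4 ± 9.61 FPKM (SD, n = 4) and in WT-labelled normal tissue 0.227 ± 0.0228 FPKM (SD, n = 4), a ratio of 284, the largest of the 10 genes. For Wif1 the same means were 167 ± 39.2 (SD, n = 4) and 1.00 ± 0.298 FPKM (SD, n = 4), a ratio of 167.

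Dkk2 measured 21.0, 20.8, 16.3 and 8.45 FPKM in the WT-young tumors, 3.74, 4.56 and 3.85 in the KO-1-hetero tumors, 18.6, 3.87 and 6.81 in KO-8-hetero, and 28.6, 11.8 and 19.9 in KO-8-homo. Normal tissue gave 0.0702 to 0.967 FPKM and the WT-old tumor 0.302 FPKM. Every tumor but the WT-old one was above every normal library, and the KO-1-hetero tumors were the least raised group. Dkk3 differed less between the tissues, with 13.7 to 29.8 FPKM in WT-young tumors, 24.4 to 33.9 in KO-1-hetero tumors, 13.2 to 29.7 in KO-8-hetero and 35.2 to 36.8 in KO-8-homo tumors. Its normal range of 5.32 to 17.2 FPKM overlapped that of the tumors, and 10 of the 13 tumors exceeded it. Its ratio of means was 1.76 in WT-young tumors over WT-labelled normal tissue. That normal tissue pools WT-young libraries (Dkk3 at 17.2 and 15.2 FPKM) with lower WT-old ones (9.12 and 5.32 FPKM), which lifts the ratio. Sfrp1 measured 12.7, 9.80, 8.50 and 3.16 FPKM in WT-young tumors, 44.8, 26.9 and 33.0 in the KO-1-hetero tumors, 6.43, 40.9 and 30.5 in KO-8-hetero, and 19.1, 16.1 and 21.5 in KO-8-homo. Normal tissue gave 3.15 to 22.2 FPKM and the WT-old tumor 9.46 FPKM. The WT-young tumors lay within the normal range, with a ratio of means of 0.833, and 5 of the 13 tumors, all with KO label, were above that range. For this ratio, too, the WT-young normal libraries (22.2 and 7.1 FPKM) were pooled with the WT-old ones (8.56 and 3.15 FPKM). The median of the 13 tumors over that of the 10 normal libraries was 2.07.

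The membrane and intracellular feedback genes were also higher in tumors, over a range of ratios from that of Rnf43 to that of Apcdd1. Rnf43 measured 27.3 to 39.7 FPKM in WT-young tumors against 5.62 to 14 FPKM in the 10 normal libraries, a ratio of means of 3.61 over WT-labelled normal tissue. Znrf3 measured 5.14 to 7.42 FPKM against 1.27 to 2.23 FPKM, a ratio of 3.68. Axin2 gave 46.8, 40.0, 44.4 and 31.9 FPKM in WT-young tumors against 4.70 to 8.76 FPKM in normal tissue, a ratio of 6.23. For each of these 3 genes, 12 of the 13 tumors were above the highest normal library, and KO-8-hetero replicate 2 was the one below it. Nkd1 gave 53.0, 47.0, 47.9 and 31.6 FPKM in WT-young tumors and 1.10 to 5.35 FPKM in normal tissue, a ratio of 16.7. Apcdd1 gave 46.5, 62.7, 56.6 and 46.6 FPKM in WT-young tumors and 0.441 to 1.09 FPKM in normal tissue, a ratio of 72.5. For Nkd1 and Apcdd1 all 13 tumors were above all 10 normal libraries. So ordered, the ratio fell from Notum and Wif1 through Apcdd1, Dkk2 (33.6) and Nkd1 to Axin2, with Znrf3 and Rnf43 near each other and Dkk3 and Sfrp1 last.

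**Figure D1:**
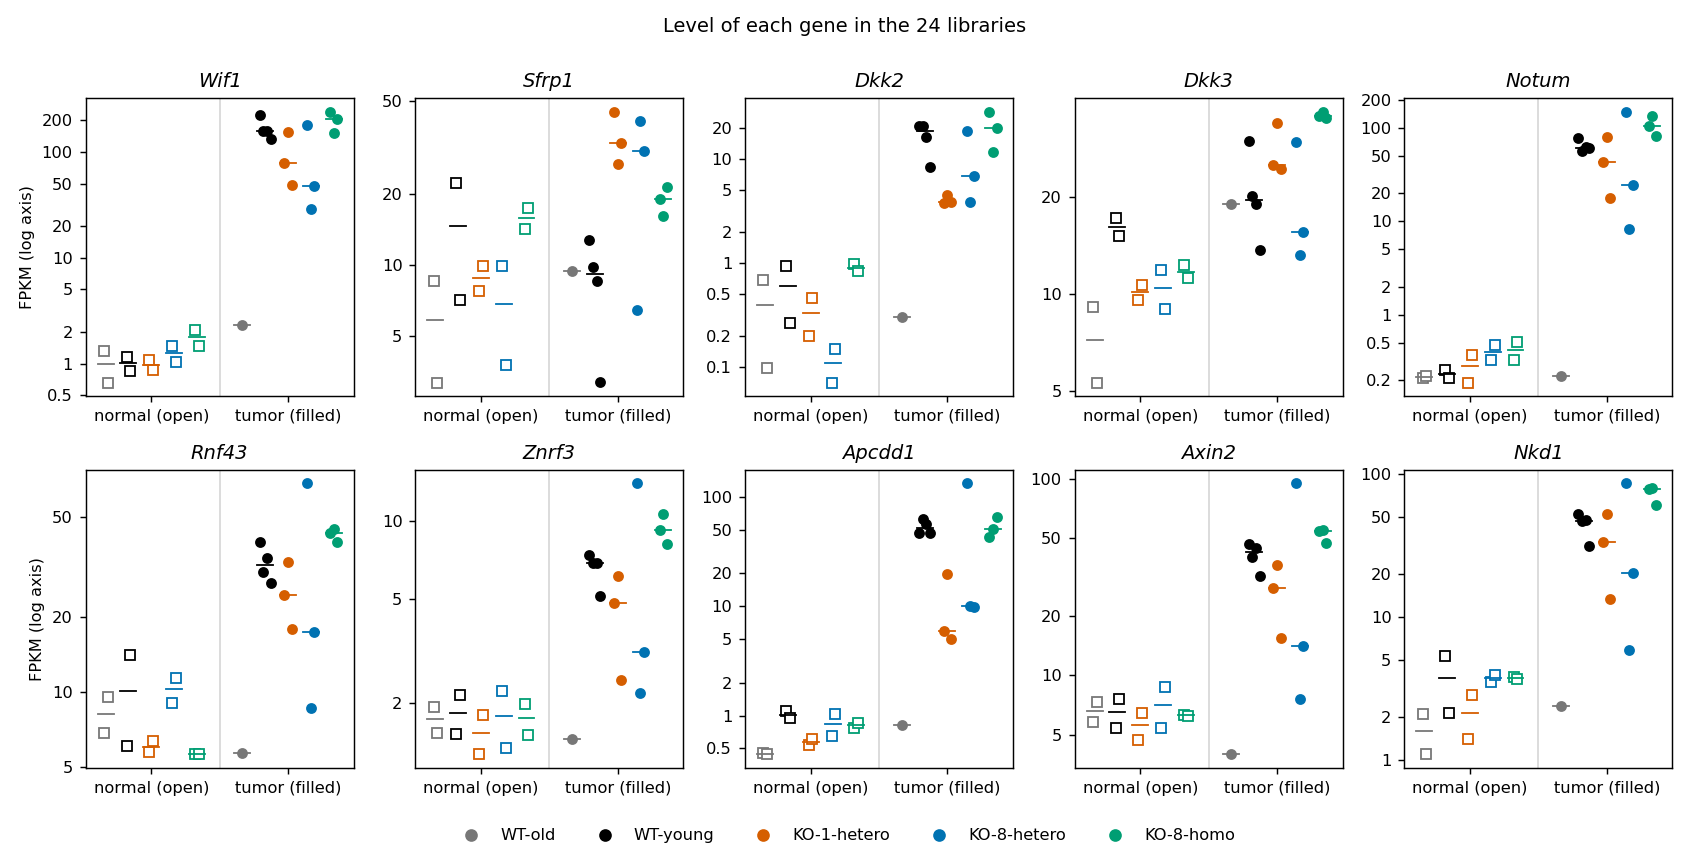
FPKM (log axis) of the 10 genes in the 24 libraries, with open squares for normal tissue, filled circles for tumors, a color for each title group and a short line at each group's median. Wif1, Notum, Nkd1, Dkk2 and Apcdd1 have all 13 tumors other than WT-old above all 10 normal libraries, and the grey WT-old tumor lies at the normal level for most genes.

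In all, 5 of the 10 genes (Wif1, Notum, Nkd1, Dkk2 and Apcdd1) had all 13 tumors above all 10 normal libraries, beside 4.83% of the 13799 genes tested. With the WT-old tumor included, Wif1 alone of the 10 genes kept every tumor above every normal library, beside 3.28% of all genes. The WT-old tumor was within the normal range for 7 genes (Notum, Nkd1, Dkk2, Znrf3, Rnf43, Apcdd1 and Sfrp1). Axin2, at 3.96 FPKM, was below that range there, and Dkk3, at 19.1 FPKM, was above it. In the limma fit with WT label, 9 of the 10 genes were called higher in tumors than in normal tissue at an adjusted p below 0.05, and 30.4% of all genes were called in either direction. With KO label all 10 were called higher, and 47.2% of all genes were called. All 10 passed the filter on low values, but Notum, Dkk2 and Apcdd1 passed through the tumors alone, so they had to differ, and nothing is read from these counts. The fold changes on the log2(FPKM + 1) scale, which understates low genes, were 5.25 with WT and 5.47 with KO label for Wif1, 4.58 and 5.25 for Notum, 4.0 and 3.75 for Apcdd1, and 2.99 and 3.19 for Nkd1. They were 2.78 and 2.79 for Dkk2, 1.86 and 2.14 for Axin2, 1.33 and 1.87 for Rnf43, 1.12 and 1.35 for Znrf3, 0.82 and 1.22 for Dkk3, and -0.04 and 1.22 for Sfrp1. Xist, the X-inactivation RNA, also differed between the KO-labelled tissues. It was at 7.38 to 30.3 FPKM in all heterozygous KO normal libraries, but among KO tumors it was high only in replicate 3 of each heterozygous group (49.9 and 48.8 FPKM). With Xist as a covariate the KO-label values ran from 1.11 for Dkk3 to 5.17 for Wif1, with Apcdd1 at 3.36. Without the WT-old tumor the WT-label values rose to 6.38 for Wif1, 5.73 for Notum, 4.97 for Apcdd1 and 3.74 for Nkd1. They also rose to 3.52 for Dkk2, 2.47 for Axin2, 1.79 for Rnf43 and 1.44 for Znrf3. Dkk3 (0.84) and Sfrp1 (-0.09) changed little. Without the WT-old normal libraries as well, Dkk3 was at 0.28 and no longer called, and Sfrp1 was at -0.65. All 7 smooth muscle markers were lower in tumors with either label, with median log2 fold changes of -2.82 with WT and -2.32 with KO label, and their part in the tissue differences was not tested.

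Other genes of the pathway did not all follow. With WT label 15.5% of all genes tested were called higher and 14.8% lower in tumors, and with KO label 24.1% and 23.2%. Of 14 other secreted inhibitors and related genes, 8 passed the filter and 0 were called in tumor against normal by limma with either label, with 0 at an unadjusted p below 0.05 with WT and 2 with KO label. Of 13 measured genes of the destruction complex and intracellular inhibitors, 2 fell with WT label, Ctnnbip1, an inhibitor of beta-catenin binding to TCF (log2 fold change -0.46, limma adjusted p 0.0449), and Dact3, which binds Dishevelled (-1.19, adjusted p 0.0116). With KO label the same list had 3 higher, Apc and Amer1 among them, and 2 lower, among them Dact3 (-1.03, limma adjusted p 0.00339). These counts are near or below the shares over all genes. Apc, the scaffold lost in most colon cancers, had a log2 fold change there of 0.65 (limma adjusted p 0.00502). Of 5 measured R-spondin ligands, receptors and coreceptors, the receptor Lgr6 was called higher with WT (1.08, limma adjusted p 0.0486) and with KO label (1.36, adjusted p 0.00161), and Lgr4 lower with KO label (-0.56, adjusted p 0.0212). Of 13 other Wnt targets, 8 were called higher with WT and 11 with KO label, and 0 lower. Lef1, a TCF/LEF factor, rose by 2.01 with WT label (limma adjusted p 0.000526) and Lgr5, the crypt stem cell receptor, by 2.69 with KO label (adjusted p 1.67e-05). The median log2 fold change of the 13 targets was 1.14 with WT and 1.47 with KO label, beside 0.02 over all genes tested with either label. These lists, too, were put together with earlier results known.

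Between the genotype labels, none of the 10 genes passed the limma test in tumors (9 KO against 5 WT libraries), and 0.00725% of all genes did. At an unadjusted p below 0.05 there was 1 of the 10, Sfrp1, at 1.44 on the log2 scale (SE 0.411, limma adjusted p 0.374). The other 9 ranged from -0.22 for Apcdd1 to 0.82 for Notum. These values rested on the WT-old tumor. Without it Apcdd1 was at -1.20 (SE 0.581), Dkk2 at -0.79 and Wif1 at -0.69, while Sfrp1 stayed at 1.49 (limma adjusted p 0.254), and 0 of 10 were called. With the title groups weighted equally, which gives the WT-old tumor the same weight as the 4 WT-young tumors together, Wif1 (2.13, limma adjusted p 0.00314) and Notum (2.54, adjusted p 0.00766) were called higher with KO label, beside 5.59% of all genes called in that fit in either direction. In normal tissue (6 against 4 libraries) 0 of the 10 genes were called by limma and 0 had an unadjusted p below 0.05, beside 0.00% of all genes called, and the log2 fold changes lay between -0.27 (Rnf43) and 0.28 (Nkd1). The 4 heterozygous KO normal libraries had Xist at 7.38 to 30.3 FPKM and the 4 WT normal libraries at 0.0401 to 0.0682 FPKM. With Xist as a covariate the values were 0.84 for Nkd1, 0.74 for Wif1 and 0.71 for Notum, with 0 of the 10 called. The interaction of label and tissue gave 0 calls among the 10 (0.00% of all genes, limma) and 0 at an unadjusted p below 0.05, with the largest value for Sfrp1, 1.26 (SE 0.628, adjusted p 0.986). Confidence intervals were wide. For Axin2 the 95% interval of the label difference in tumors was -0.79 to 1.26 on the log2 scale.

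Against WT-young tumors, KO-1-hetero was the 1 title group with any of the 10 genes called. These tumors had less Apcdd1 and Dkk2 than WT-young tumors. Apcdd1 measured 5.93, 19.7 and 5.0 FPKM in KO-1-hetero against 46.5, 62.7, 56.6 and 46.6 FPKM in WT-young tumors, and the groups did not overlap. On the log2 scale Apcdd1 was at -2.49 (SE 0.614, limma adjusted p 0.0397). Dkk2, at 3.74 to 4.56 against 8.45 to 21.0 FPKM, fell by 1.73 (SE 0.390, limma adjusted p 0.0303), again without overlap. These were 2 of the 10 genes, and 2.88% of all genes were called. Sfrp1 was higher in all 3 KO-1-hetero tumors (44.8, 26.9 and 33.0 FPKM) than in the 4 WT-young tumors, at 2.01 on the log2 scale (SE 0.535) with a limma adjusted p of 0.0526. That p ran from 0.0323 to 0.219 over 17 alternatives and was below 0.05 in 2 of them (quantile normalization and a fit of the 2 groups alone). The ranges of these 3 genes were the ones that did not overlap, beside 27.4% of all genes. The other 7 log2 fold changes ran from -0.96 for Wif1 to 0.45 for Dkk3. The calls were narrow: over 17 alternatives the log2 fold change of Apcdd1 ran from -3.06 to -2.02 with adjusted p from 0.0209 to 0.185 (below 0.05 in 8), and that of Dkk2 from -2.01 to -1.60 with 0.0185 to 0.139 (below 0.05 in 10). Neither was called when KO-1-hetero replicate 1 or 3 or WT-young replicate 1, 2 or 3 was left out. KO-1-hetero replicate 3 was the 1 tumor of its group with a high level of Xist, the X-inactivation RNA (49.9 FPKM against 0.0460 and 0.0621 in the other two), and neither gene was called with Xist as a covariate. KO-1-hetero tumors also had higher smooth muscle sums (703 to 1067 against 173 to 370 FPKM, 2 of 7 markers called) and leukocyte sums (84.3 to 132 against 35.3 to 55.6 FPKM, 2 of 6 called). The part of these in the differences was not tested.

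**Figure D2:**
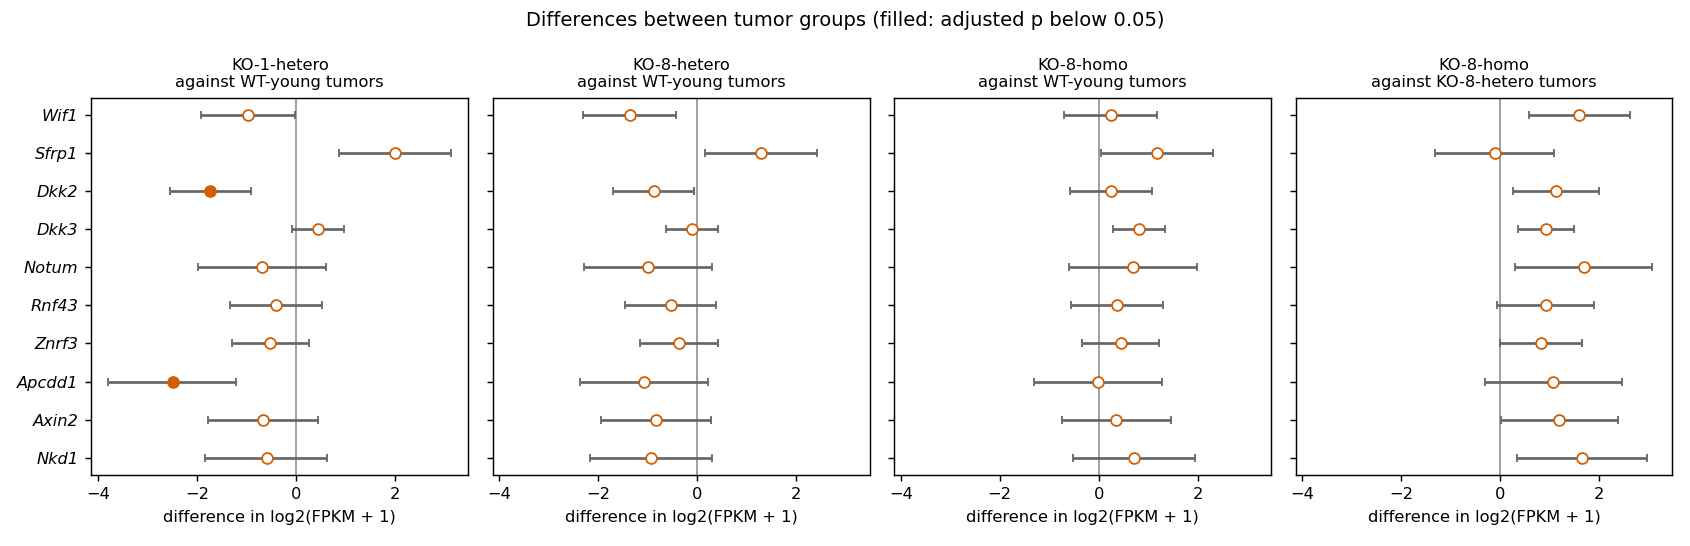
Log2 fold change on the log2(FPKM + 1) scale of the 10 genes for each title group of KO tumors against WT-young tumors and for KO-8-homo against KO-8-hetero tumors, with bars for the 95% confidence interval of the limma fit. Filled points mark an adjusted p below 0.05, which only Apcdd1 and Dkk2 reached, in KO-1-hetero.

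The KO-8-hetero tumors ranged more widely among themselves than they differed from WT-young. Replicate 1 had the highest level of all tumors for 6 of the 10 genes, among them Axin2 at 94.7 FPKM and Apcdd1 at 133 FPKM. Replicate 2 was second lowest for 6, next to the WT-old tumor that was lowest for 8, with Axin2 at 7.62 FPKM and Apcdd1 at 10.1 FPKM, and replicate 3 had Axin2 at 14.1 and Apcdd1 at 9.92 FPKM. Within these 3 libraries Notum ran from 8.23 to 148 FPKM. Against WT-young tumors 0 of the 10 genes were called by limma (0.00725% of all genes) and 3 had an unadjusted p below 0.05, namely Wif1 (-1.36), Dkk2 (-0.88) and Sfrp1 (1.29). No member had ranges that did not overlap, beside 7.44% of all genes. This count hung on replicate 1: without it 8 of the 10 were called, beside 1.75% of all genes (242 genes). That fit leaves only replicates 2 and 3 in KO-8-hetero. Sfrp1 was then higher in KO-8-hetero (2.06, limma adjusted p 0.0390), and Apcdd1 (-2.28, adjusted p 0.00611), Axin2 (-1.86, adjusted p 0.00657), Wif1, Notum, Dkk2, Znrf3 and Rnf43 were lower. The smooth muscle sum was 1292 FPKM in replicate 2, 539 in replicate 3 and 236 in replicate 1, against 173 to 370 FPKM in WT-young tumors. Replicate 2 also had the highest fibroblast sum of all tumors, 1144 FPKM, and replicate 3 had Xist at 48.8 FPKM against 0.0519 and 0.0455 in replicates 1 and 2. Replicate 1 had the greatest relative depth of all libraries, 1.87, and, apart from WT-old, the lowest epithelial sum of the tumors, 4692 FPKM. The part of these in the differences was not tested.

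The KO-8-homo tumors, by contrast, were close to each other in Axin2. It measured 54.4, 55.2 and 47.3 FPKM against 46.8, 40.0, 44.4 and 31.9 FPKM, so that the lowest KO-8-homo tumor was just above the highest WT-young tumor. Nkd1 measured 79.1, 80.6 and 61.5 FPKM against 31.6 to 53.0 FPKM, and Dkk3 35.7, 36.8 and 35.2 against 13.7 to 29.8 FPKM. For 7 of the 10 genes (Notum, Nkd1, Axin2, Dkk3, Znrf3, Rnf43 and Sfrp1) all 3 KO-8-homo tumors were above all 4 WT-young tumors, beside 9.81% of all genes. For Rnf43 the lowest KO-8-homo and the highest WT-young tumor are both 39.7 FPKM when rounded. Several of these genes vary together across tumors, so they are not separate observations. The smooth muscle sums (456 to 976 against 173 to 370 FPKM) and leukocyte sums (63.3 to 94.5 against 35.3 to 55.6 FPKM) of KO-8-homo tumors were also all above those of WT-young tumors, and their part in these levels was not tested. In the limma fit 0 of the 10 were called (0.457% of all genes), and 2 had an unadjusted p below 0.05, Dkk3 at 0.82 on the log2 scale (SE 0.252, adjusted p 0.221) and Sfrp1 with 1.18 (SE 0.535, adjusted p 0.474). Wif1, Dkk2 and Apcdd1 overlapped between the groups, with Apcdd1 at 43.0, 51.1 and 65.1 FPKM and a log2 fold change of -0.01 (95% interval -1.30 to 1.29). The comparisons of the 3 KO groups share the same 4 WT-young tumors.

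Between KO-8-homo and KO-8-hetero tumors, 9 of the 10 log2 fold changes were above 0, with a median of 1.11 beside 0.01 over all genes tested. None was called by limma (0.0507% of all genes were), and 6 had an unadjusted p below 0.05. The largest were Notum at 1.69 (SE 0.655, adjusted p 0.769), Nkd1 at 1.66 and Wif1 at 1.60, and Sfrp1 was the gene below 0, at -0.11. Without KO-8-hetero replicate 1 all but Sfrp1 were called higher in KO-8-homo, beside 2.48% of all genes (342 genes) called in either direction. The log2 fold changes were 2.36 for Wif1, 2.78 for Notum and 2.22 for Axin2 (limma adjusted p 0.00664, 0.00664 and 0.00480). Only replicates 2 and 3 of KO-8-hetero remain in that fit.

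Across tumors Rnf43, Znrf3, Nkd1 and Notum followed Axin2 most closely. Over the 13 tumors without WT-old, Pearson's r of log2(FPKM + 1) with Axin2 was 0.99 for Rnf43, 0.98 for Znrf3, 0.97 for Nkd1 and 0.97 for Notum, with Spearman's rho of 0.99, 0.99, 0.97 and 0.95. The permutation p of each of these r was 1e-05 (100000 resamples, the smallest they can give) and 1.8e-05 when adjusted over the 9 relations. Wif1 had r of 0.93 (rho 0.82, permutation p 1e-05), Apcdd1 0.83 (rho 0.75, permutation p 0.00039, adjusted 0.000585) and Dkk2 0.75 (rho 0.73, permutation p 0.00183, adjusted 0.00235). Dkk3 had r of 0.67 (rho 0.75, permutation p 0.0111, adjusted 0.0124), and Sfrp1 was the only one below 0, with r of -0.59 (rho -0.60, permutation p 0.0318, adjusted 0.0318). With the WT-old tumor included, r was -0.32 for Sfrp1 (permutation p 0.272), 0.62 for Dkk3, 0.86 for Dkk2, 0.90 for Apcdd1 and 0.93 or more for the other 5. Leaving out the 2 tumors farthest from the median Axin2 level, KO-8-hetero replicates 2 and 3, kept r at 0.99 for Rnf43, 0.99 for Znrf3, 0.94 for Nkd1, 0.94 for Notum, 0.82 for Wif1, 0.86 for Apcdd1 and 0.73 for Dkk2. For Dkk3 r then was 0.38 (permutation p 0.24), so that relation rests on those tumors. For Sfrp1 it was -0.44 (permutation p 0.17), the same sign but no longer past 0.05 over 11 tumors. The permutations shuffled tumors across the title groups, so differences between these groups enter each p. The title groups hold 3 or 4 tumors each, too few for a value within a group. The genes were listed together as Wnt feedback genes, and all values share the libraries and their depth.

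**Figure D3:**
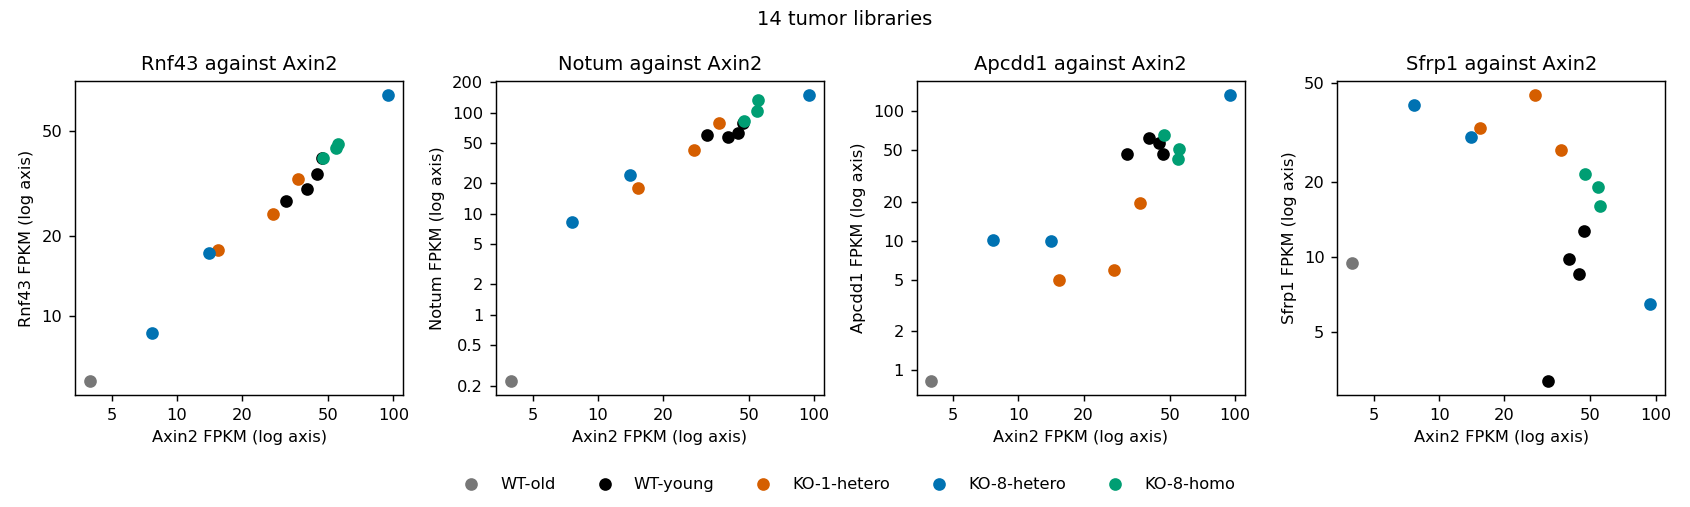
FPKM of Rnf43, Notum, Apcdd1 and Sfrp1 against Axin2 in the 14 tumors (both axes log), colored by title group. Rnf43 and Notum lie along a line with Axin2, the 3 KO-1-hetero tumors lie below the other tumors of like Axin2 level for Apcdd1, and Sfrp1 falls with rising Axin2 among the KO tumors.

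The spread over those 13 tumors was widest for Apcdd1, with a 26.5-fold range, and narrowest for Dkk3, with 2.78-fold. Axin2 spanned 12.4-fold, Notum 18-fold and Nkd1 14.7-fold, while the 10 normal libraries differed by 1.86-fold for Axin2. Dividing each gene by Axin2 in the same library, a measure chosen after the values were seen, set Apcdd1 apart in KO-1-hetero tumors. The ratio of Apcdd1 to Axin2 FPKM was 0.214 to 0.542 in KO-1-hetero, against 0.992 to 1.57 in WT-young, 0.703 to 1.40 in KO-8-hetero and 0.790 to 1.38 in KO-8-homo tumors. Apcdd1 was the only 1 of the 10 genes whose ratio did not overlap between KO-1-hetero and the 10 other tumors, beside 0.181% of all genes. The WT-old tumor, not among those 10, had a ratio of 0.208. Against WT-young tumors alone 5 genes did not overlap (Dkk3, Rnf43 and Sfrp1 higher, Dkk2 and Apcdd1 lower), beside 23.6% of all genes. The ratio of Rnf43 to Axin2 stayed within a narrower span, with 0.753 to 0.856 in WT-young, 0.793 to 0.840 in KO-8-homo, 0.883 to 1.16 in KO-1-hetero and 0.720 to 1.23 in KO-8-hetero tumors.

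**Figure D4:**
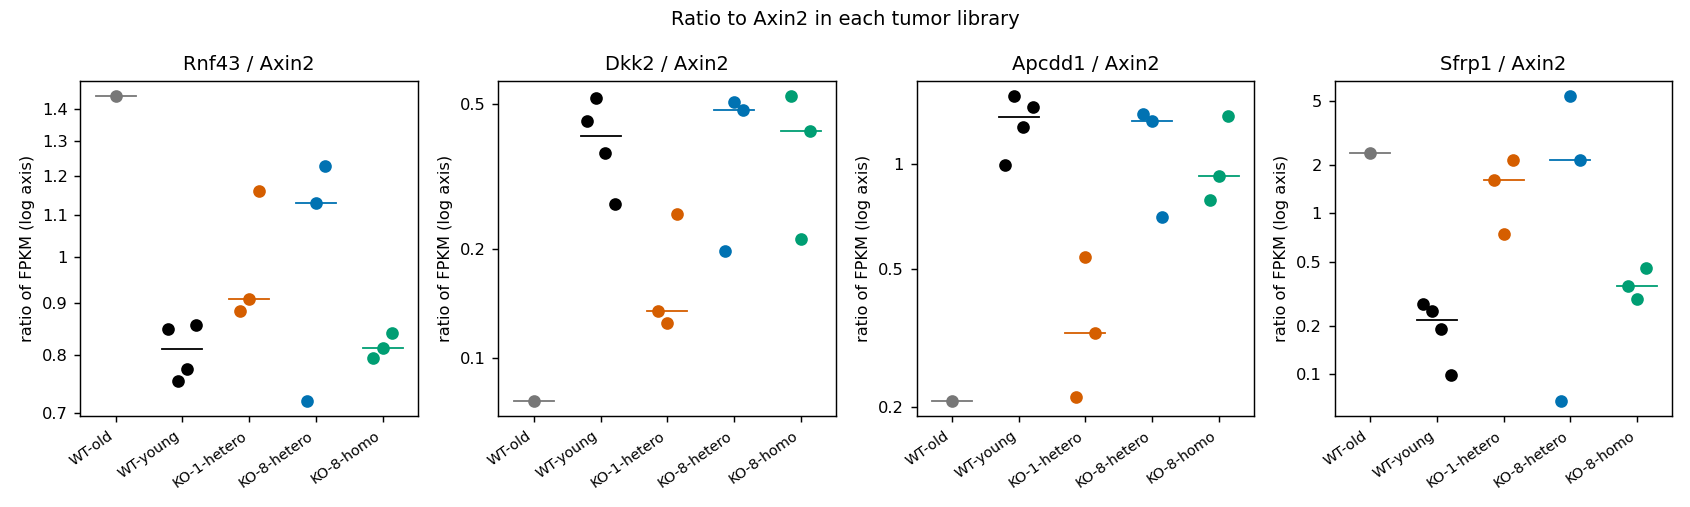
Ratio of the FPKM of Rnf43, Dkk2, Apcdd1 and Sfrp1 to that of Axin2 in the same tumor (log axis), by title group, with 1 point per library and a line at the group median. Apcdd1 is lowest in the 3 KO-1-hetero tumors (0.214 to 0.542) and the WT-old tumor (0.208), and Sfrp1 spreads most widely.

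Sfrp1 had a pattern of its own. Its levels in KO-8-homo tumors lay between those of WT-young and KO-1-hetero tumors, and the KO-8-hetero tumors spanned both. Among the 13 tumors the 5 with the least Sfrp1, the 4 WT-young tumors and KO-8-hetero replicate 1, were also the 5 with the lowest smooth muscle sums, 173 to 370 FPKM. The cut at 5 was set as the 4 WT-young tumors and 1 more, so this match is a description. The sums were 703 to 1067 FPKM in KO-1-hetero and 456 to 976 FPKM in KO-8-homo tumors. The WT-old tumor did not follow this order. Its Sfrp1, at 9.46 FPKM, was within the WT-young range, but its smooth muscle sum of 2879 FPKM was the highest of all tumors. Normal tissue had mostly higher sums (927 to 7123 FPKM, median 2988) than the 13 tumors (173 to 1292 FPKM, median 485). Sfrp1 was at 3.15 to 22.2 FPKM in normal tissue, so its level beside these markers differed between the tissues. The part of muscle or other stromal cells in the Sfrp1 levels was not tested.

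**Figure D5:**
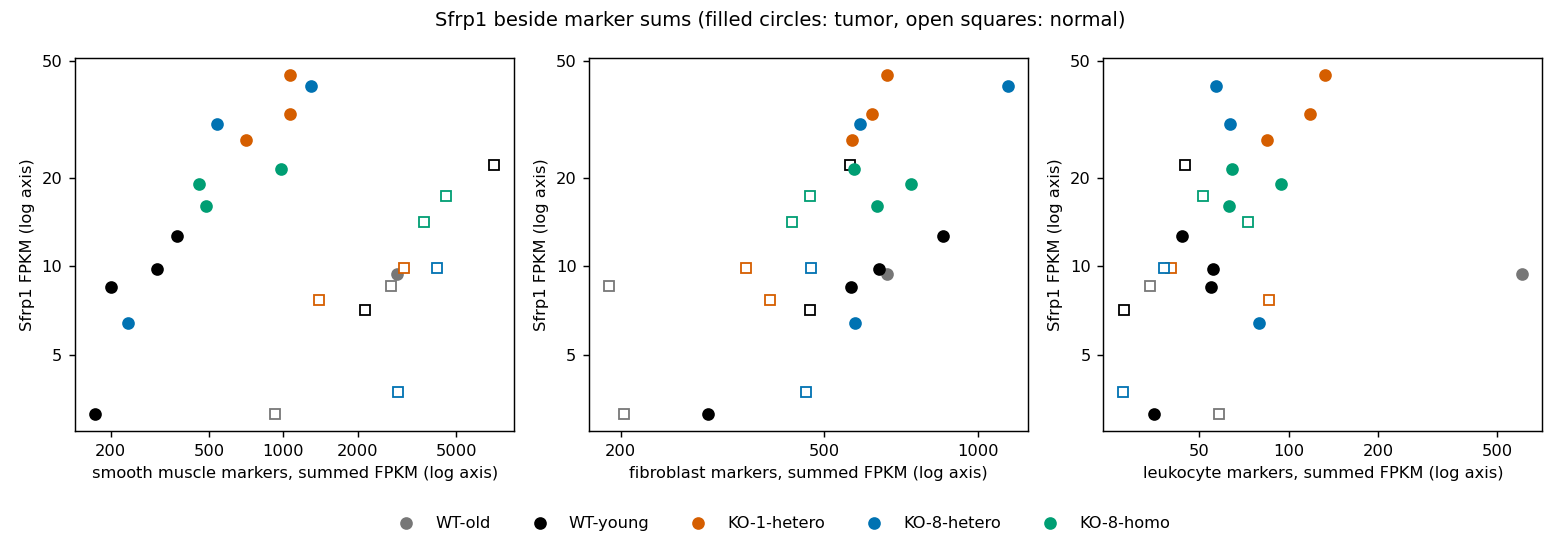
Sfrp1 FPKM against the summed FPKM of smooth muscle, fibroblast and leukocyte markers in the 24 libraries (all axes log), with filled circles for tumors and open squares for normal tissue. Among the 13 tumors other than WT-old, the 5 lowest in Sfrp1 are the 5 lowest in smooth muscle markers. Most normal libraries lie to the right of these 13 tumors for smooth muscle markers only. The WT-old tumor is far to the right for leukocyte markers. With Sfrp1 at 9.46 FPKM, it is also to the right of all other tumors for smooth muscle markers.

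Among 13789 other genes, the one most like each of the 10 over the 14 tumors by Pearson's r was Mt3 for Notum (r 0.99), Fgfrl1 for Nkd1 (0.99), Amot for Axin2 (0.98), Ctxn1 for Znrf3 (0.98) and Vgll4 for Rnf43 (0.98). For the rest it was Pdgfrl for Wif1 (0.97), Prkg2 for Dkk2 (0.96), Cyth2 for Apcdd1 (0.96), Zfp9 for Sfrp1 (0.93) and Nudt3 for Dkk3 (0.92). Without the WT-old tumor these r lay between 0.91 (Nudt3 with Dkk3) and 0.98. They were picked as the highest of many and are a description.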

How the data were processed

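RNA-seq of 24 mouse colorectal tissue libraries was used, prepared from total RNA with a stranded mRNA kit, per the labels' protocols. The authors deposited 1 table of FPKM values per library, per the file headers. TopHat2 2.1.1, Bowtie2 2.2.8, SAMtools 0.1.18, Cuffdiff 2.2.1 and the build mm10 are named in the submitters' processing notes. FPKM tables hold no counts, so no count model was used and depth is known only in relative terms. Groups came from the titles. Values were taken as log2(FPKM + 1), and 13799 genes were tested, those that reached 1 FPKM in 4 or more libraries, with limma 3.58.1 (R 4.3.3, intensity trend, two-sided, Benjamini-Hochberg over all genes tested, threshold 0.05). A model of label and tissue (4 groups) served the label and tissue contrasts, and one of the 10 title groups the rest, each on all 24 libraries. The fit was also run on simulated data, and the outcome of that run is not given here. Marker sums, ratios and permutation tests used Python 3.11.15, pandas 2.3.3, numpy 2.4.6 and scipy 1.17.1. The genes and lists were chosen with earlier results of these data known. All 10 genes are given, other pathway genes are named by smallest p among those called (up to 3 per list and contrast), and the likest gene by the highest Pearson r. Alternatives covered the pseudocount, filter, scaling, variance model, covariate, replicate block, group weights and left-out libraries. Promoter windows came from RefSeq (GRCm38.p6).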

Additional observations from a re-analysis of the deposited data

Results flagged for a closer look

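Of 50 groups of 4 to 10 libraries tested for a single far value (5 sets of libraries for each of the 10 genes), 8 held one, where chance gives about 1 in 20. In 7 of them the WT-old tumor was far below the 4 WT-young tumors, with Wif1 at 2.29 FPKM, Notum at 0.222, Nkd1 at 2.40, Axin2 at 3.96, Znrf3 at 1.45, Rnf43 at 5.70 and Apcdd1 at 0.822 FPKM. The remaining one was Nkd1 in KO-labelled normal tissue, where KO-1-hetero replicate 1, at 1.40 FPKM, was below the other 5 libraries.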

How the results depend on the processing

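Over 36 alternatives, 24 of which left out 1 library each, 1741 of the 1920 fold changes recomputed for the 10 genes kept their direction and their side of the threshold, 108 changed sign with no call on either side, 50 lost and 21 gained a call, and 0 turned direction with a call. Losses were 34 in tumor against normal with WT label and 16 in KO-1-hetero against WT-young. The number of genes called in tumor against normal with WT label was 5 to 9 when single libraries were left out, with 5 without WT-young tumor replicate 1, 2 or 3 or WT-old normal replicate 1. In KO against WT tumors it was 2 with title groups weighted equally and 0 otherwise. In KO-1-hetero against WT-young tumors it was 1 with a pseudocount of 0.1, 1 without the filter, 0 with Xist as a covariate, 3 with quantile normalization or the 2 groups alone, and 0 to 2 with single libraries left out (1 without WT-young replicate 4). KO-8-hetero against WT-young gave 0 to 8 and KO-8-homo against KO-8-hetero 0 to 9, both highest without KO-8-hetero tumor replicate 1. The replicate block gave 1 call in KO-1-hetero against WT-young (Dkk2, with Apcdd1 at an adjusted p of 0.0715 in limma) and 7 in tumor against normal with WT label. Same-numbered tumor and normal libraries deviated from their group means with r of -0.16 to 0.35 over 8 pairs. With 2 normal libraries per group, these r cannot decide whether the numbers pair libraries of 1 animal. In both heterozygous KO groups, tumor replicates 1 and 2 had Xist at 0.0455 to 0.0621 FPKM. The same-numbered normal libraries there had 7.38 to 30.3 FPKM. Numbers in these groups thus join libraries unlike in Xist, and the replicate block is not read as a pairing of animals. The cause of these shifts was not tested, beyond the fewer libraries in a smaller fit. FPKM without counts limits the precision of values below 1 FPKM, such as Notum and Dkk2 in normal tissue.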
